A study of Mus musculus with 8 samples.

Results

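Rab27b is a small GTPase that sits on secretory granules and lysosome-related organelles. In its GTP-bound form it recruits effector proteins of the synaptotagmin-like, Slac2 and Munc13-4 families, which tether granules and prepare them for fusion with the plasma membrane. In mast cells it acts, together with its relative Rab27a, in the release of histamine and other granule contents after the IgE receptor is crosslinked. Modified cytosines in RNA are measured here by bisulfite sequencing, in which unmodified cytosine is turned into uracil while 5-methylcytosine is read as cytosine. The methylation level at a position is thus the fraction of its reads with cytosine retained. Unmodified cytosine that escaped conversion is included in it, as is any other modified cytosine that resists conversion.

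The sites described are the rows of the deposited table that lie inside the Rab27b gene span, on chromosome 18 from 69979131 to 70141633 of mouse build GRCm38 (GRCm38.p6 RefSeq annotation, gene 80718). They numbered 219 of the 8492 sites in the table. Cells were bone marrow derived mast cells of C57BL/6 mice, grown with IL-3 and SCF, and stated in the labels to be FcεRI+ c-Kit+ at a purity above 97.5%. The libraries analysed came from Tet2-/- cells, which lack an enzyme that oxidises 5-methylcytosine; they comprised 2 biological replicates with 2 technical replicates each, 4 libraries of the 8 in the labels. The other 4 libraries, from wild-type cells, were not analysed here, and the title line of the table says that its sites were selected by the authors as particular to the group lacking Tet2. No value below is therefore a difference between genotypes, and the presence of a site in the table is not independent evidence that it depends on Tet2. The labels do not say how the Tet2 allele was made or whether a biological replicate was 1 animal or a pool. Read numbers were not analysed, so depth is unknown and levels carry no interval for counting error. The table holds no expression values, so the mast cell label could not be checked against marker transcripts. Errors are the SD over 2 biological replicates after technical replicates were averaged.

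Rab27b sites were read as cytosine at a high level in every library. Averaged over the 219 sites, technical replicates 1 and 2 read 91.6% and 88.1% in biological replicate 1. They read 90.9% and 92.6% in biological replicate 2, which gave 90.8% ± 1.35 (SD, n = 2). The 4 libraries lay within 4.50 points of each other, and the ranges of the biological replicates overlapped. The median of the site means was 94.9%, above the mean, and the site means had a broad tail towards lower levels. The middle 50% of sites lay between 86.6% and 97.1%, and only 27 sites (12.3%) had a mean under 80%. All 4 libraries were at 50% or more for 213 of the sites, and the site at 70010903 was alone in having a mean below 50%.

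The sites occupied a small part of the gene. All 219 lay between 70009568 and 70033875, a window of 24308 bases that makes up 15.0% of the 162503 bases of the span. The window began 30437 bases inside the lower end of the span and ended 107758 bases before its upper end. Gm41770, a long noncoding RNA gene whose span (70055175 to 70134732) overlaps that of Rab27b, held 0 of these sites, and its nearer end was 21300 bases away. Exons, introns, untranslated regions and strand were not used here, so whether these sites belong to the mature mRNA or to other transcribed parts of the gene cannot be said. Rab27b accounted for 90.9% of the 241 listed sites of chromosome 18. The protein-coding neighbours on each side, Ccdc68 and Dynap, had 0 listed sites. The nearest genes with listed sites were Rnf125, a ubiquitin ligase with 1 site at 19.8% ± 0.566, and Smad2, a transducer of TGF-beta signals with 21 sites at 37.5% ± 2.63 (SD, n = 2 for both). Both lay far off, at 48993116 bases below and 6130157 bases above Rab27b.

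Joining sites up to 500 bases apart gave 4 stretches that form a pair of pairs. Stretch 1 ran from 70009568 to 70009896 with 64 sites in 329 bases. Stretch 2 followed 625 bases later, from 70010521 to 70011002, with 45 sites in 482 bases. After a gap of 20926 bases without a listed site came stretch 3, from 70031928 to 70032377, with 67 sites in 450 bases. Stretch 4 began 1304 bases further on and ran from 70033681 to 70033875, with 43 sites in 195 bases. Site density was 19.5, 9.34, 14.9 and 22.1 sites per 100 bases in stretches 1 to 4, against a median of 11.1 over the 146 regions of the table with 10 or more sites. Stretch 2 was the sparsest and contained a step of 233 bases without a listed site between 70010665 and 70010898, and stretch 3 contained a similar step of 165 bases.

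**Figure D1:**
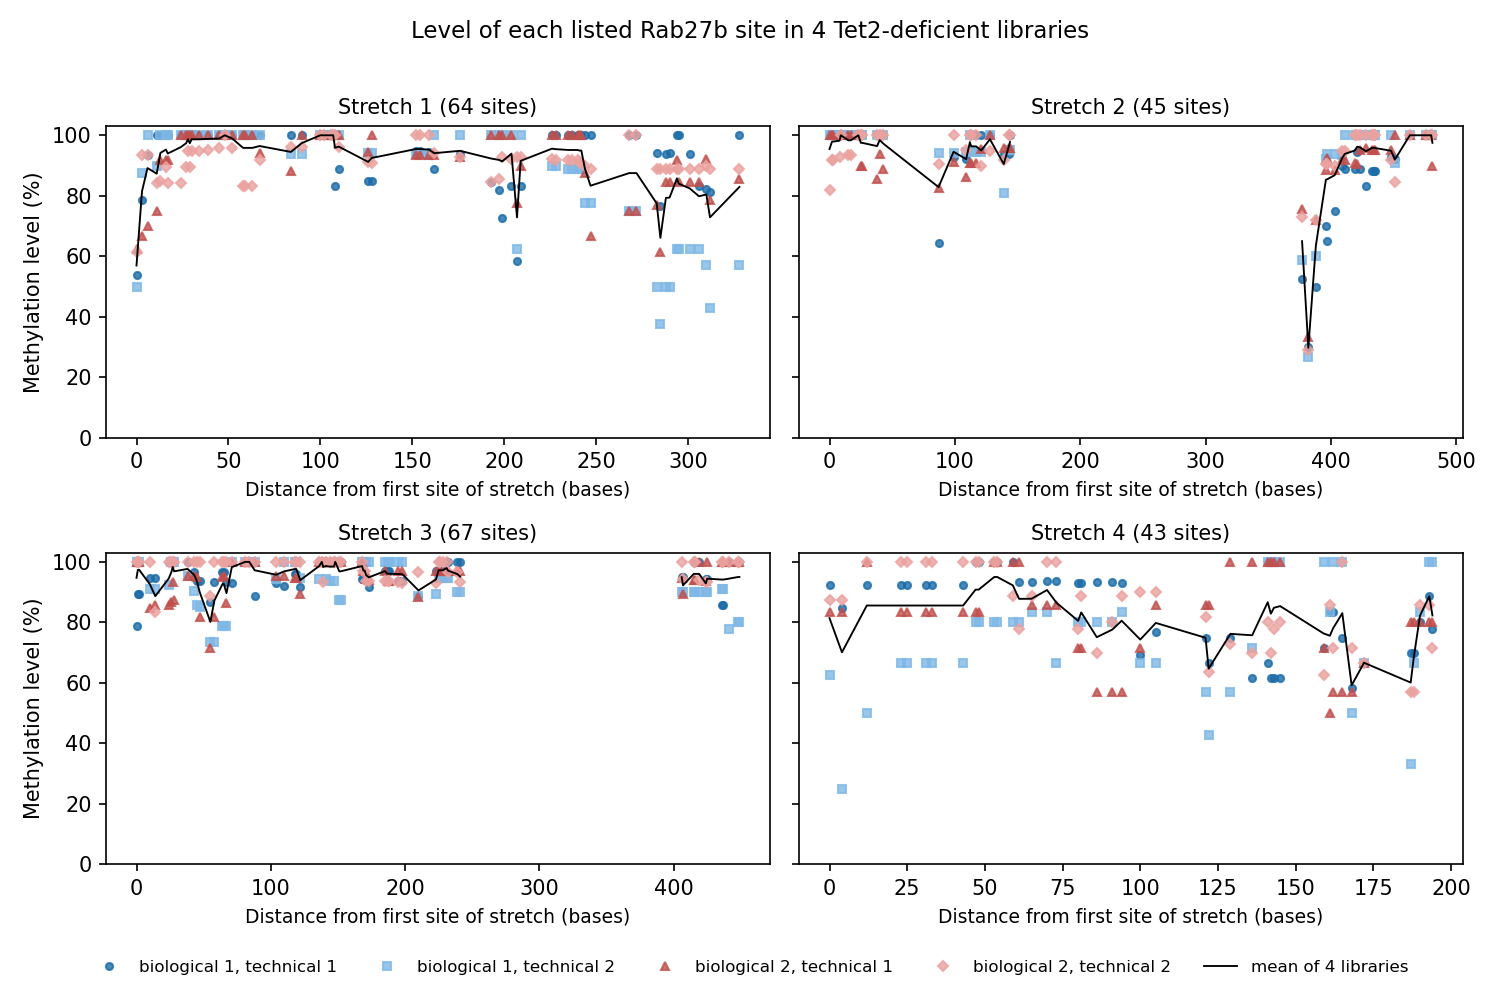
Methylation level in percent (vertical axis) of each listed Rab27b site against its distance in bases from the first site of its stretch (horizontal axis); coloured symbols are the 4 Tet2-deficient libraries and the black line is their mean, broken where no site is listed for over 100 bases. Stretches 1 to 3 stay mostly above 90%, with a single deep dip to 29.8% in stretch 2, while stretch 4 is lower and more scattered.

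Stretch 3 had the highest mean over sites. Its library means were 95.9% and 93.1% (biological replicate 1) and 95.3% and 98.0% (biological replicate 2), or 95.6% ± 1.52 (SD, n = 2). It was above stretch 2 in 3 of the 4 libraries, while technical replicate 2 of biological replicate 1 was higher in stretch 2 (94.4%). With a median over sites taken in each library and then averaged, stretch 2 was the higher, at 98.8% against 97.1%. The medians of the site means were close, at 96.2% in stretch 2 and 96.0% in stretch 3. The sites of stretch 3 were the most even: 63 of 67 had a mean of 90% or more, 40 were at 90% or more in every library, and the lowest site, at 70031983, still had a mean of 80.2%. At that site the libraries, in the same order, read 86.7%, 73.7%, 71.4% and 88.9%. Both parts of stretch 3 were high, with 95.8% ± 0.943 over the 55 sites before its long step and 94.6% ± 4.17 over the 12 sites after it (SD, n = 2 for both).

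Stretch 2 stood at 92.6% ± 0.376 (SD, n = 2), with library means of 90.3%, 94.4%, 92.0% and 93.7%. Its first 24 sites, up to 70010665, averaged 96.3% ± 1.52, and its last 21 sites, from 70010898 on, averaged 88.4% ± 2.55 (SD, n = 2 for both). The second part began with the lowest site of the gene. At 70010903 the libraries read 30%, 26.7%, 33.3% and 29.2%, a spread of 6.67 points. The listed sites on each side, at 70010898 and 70010909, had means of 65.0% and 63.5% and were higher in every library. Levels then climbed to 85.3% at 70010917 and to 100% in every library at 70010984. Of the 158 Rab27b sites with a listed site within 10 bases on each side, this was the single one that lay below both in every library; among all listed sites 31 of 5238 such sites did, and 3 of them, including this one, lay on average 30 points or more below the lower neighbour. That count was chosen after the values were seen.

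Stretch 1 stood at 91.0% ± 0.933 (SD, n = 2), with library means of 93.7% and 87.1% for biological replicate 1 and 91.8% and 91.6% for biological replicate 2. It rose steeply from its first site, at 70009568, where the libraries read 53.8%, 50%, 62.5% and 61.5%. The next site, 70009571, had a mean of 81.5%, and 44 of the 64 sites had a mean of 90% or more. The libraries parted at the far end. Over the 14 sites from 70009815 to 70009896, biological replicate 1 read 92.8% in technical replicate 1 and 58.7% in technical replicate 2, while replicate 2 read 80.5% and 90.6%. Technical replicate 2 of biological replicate 1 was thus far below the other 3 libraries there, although over the first 21 sites of the stretch, up to 70009635, it read 96.5%, as high as its technical partner. Its single-site levels at the far end, such as 50%, 62.5% and 57.1%, are simple fractions that few reads would give. The 88.9% that technical replicate 2 of biological replicate 2 often read there is such a fraction too. Read numbers behind these levels were not analysed.

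Stretch 4 was the lowest and the least even. Single-site levels were often coarse there, such as 66.7%, 80% and 83.3% in technical replicate 2 of biological replicate 1. Biological replicate 2 also had coarse levels, such as 57.1%, 71.4% and 85.7% in technical replicate 1. Its technical replicate 2 read values such as 77.8% and 88.9%. Few reads would give such simple fractions, and whether the unevenness goes with depth was not tested. Its library means were 83.0% and 75.2% for biological replicate 1 and 81.6% and 84.3% for biological replicate 2, or 81.0% ± 2.74 (SD, n = 2). Only 6 of its 43 sites had a mean of 90% or more, 0 were at 90% or more in every library, and 16 had a mean under 80%. Its lowest site, at 70033849, read 58.3%, 50%, 57.1% and 71.4%, and its highest, at 70033734 and 70033735, had means of 95%. Over its first 10 sites, up to 70033729, technical replicate 2 of biological replicate 1 read 63.1%, while the other 3 libraries read 93.1%, 85.0% and 97.5%. Over its last 11 sites, from 70033840 on, the order changed: that library read 80.3%, the highest of the 4, against 75%, 69.0% and 74.1%. All 4 libraries were lower in stretch 4 than in each of stretches 1 to 3. Stretches 1 and 2 were not separated by library, since the first was higher in technical replicate 1 of biological replicate 1 and lower in the other 3 libraries.

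**Figure D2:**
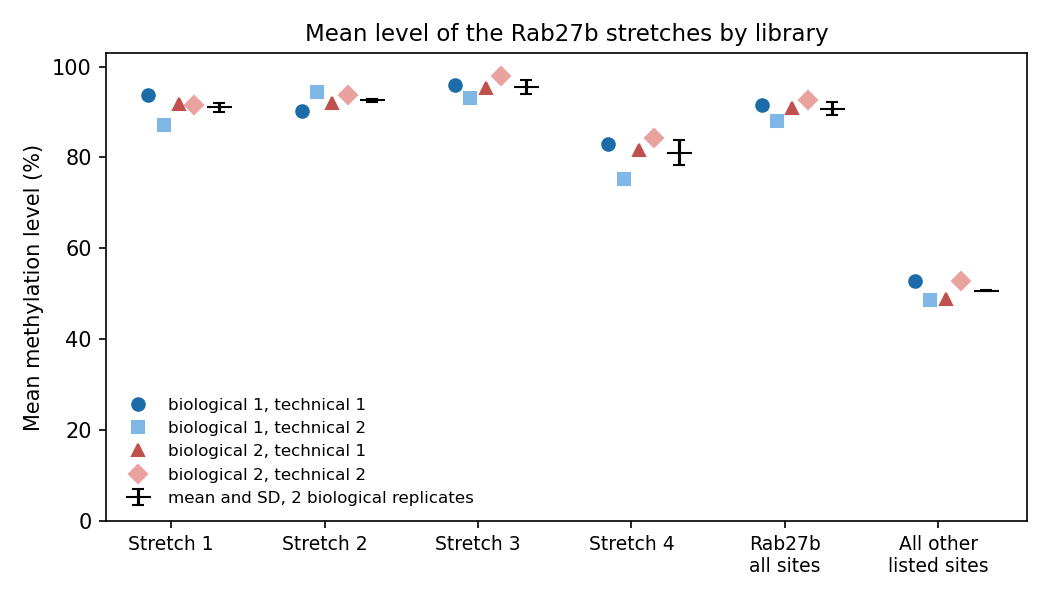
Mean methylation level in percent (vertical axis) of the 4 Rab27b stretches, of all Rab27b sites and of all other listed sites (horizontal axis); coloured symbols are the 4 libraries, and the black tick and bar are the mean and SD of 2 biological replicates. Stretch 4, at 81.0%, lies below stretches 1 to 3 in every library, and all Rab27b values lie far above the 50.7% of the other sites.

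Many Rab27b sites were at the top of the scale. The number of sites reading 100% was 92 and 94 for the libraries of biological replicate 1 and 80 and 94 for biological replicate 2. At 14 sites (6.39%) every library read 100%, where the share over all listed sites was 0.836%. These 14 comprised 5 sites each in stretches 1 and 2, 4 in stretch 3 and 0 in stretch 4. A further 48 sites read 100% in 3 of the 4 libraries, and 46 sites (21.0%) did so in 0 libraries. Among all other listed sites, 85.0% read 100% in 0 libraries. At 84 Rab27b sites (38.4%) every library was at 90% or more, which was true of 2.43% of all listed sites. Rab27b thus held 84 of the 206 sites in the table that met this level. The gene was put forward with its high level already known, so these shares describe its sites and test nothing.

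**Figure D3:**
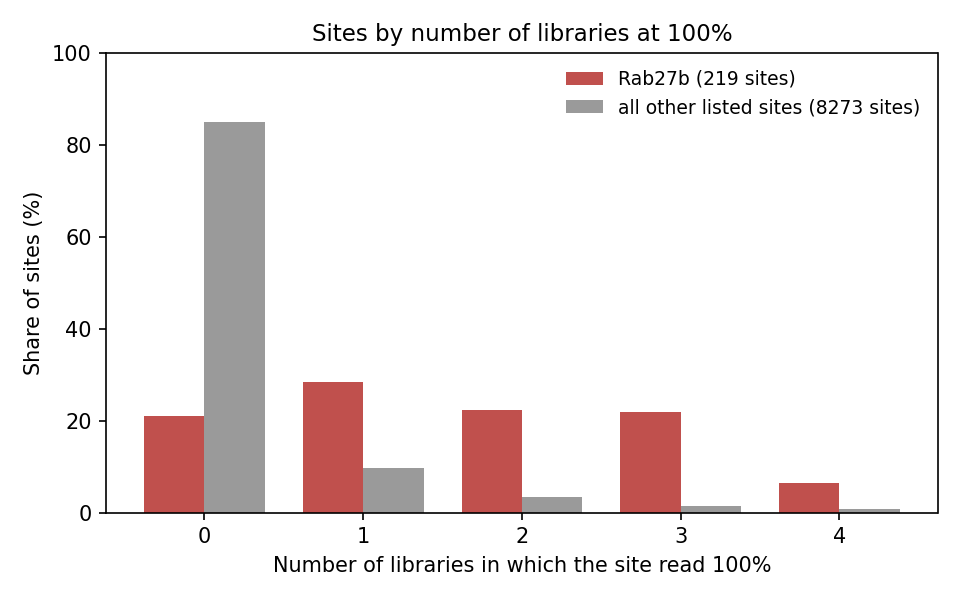
Share of sites in percent (vertical axis, starting at 0) by the number of libraries in which the site read 100% (horizontal axis), for Rab27b in red and all other listed sites in grey. Of the Rab27b sites 21.0% reached 100% in none of the 4 libraries, against 85.0% of the other sites.

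Agreement between libraries was examined site by site. The spread between the highest and lowest library had a median of 11.1 points at Rab27b sites and 22.7 points over all listed sites, but levels close to 100% leave less room to vary. Within the gene that median was 8.32 points in stretch 3 and 33.3 points in stretch 4, and whether this contrast goes with read depth was not tested. Pairs of technical replicates differed by 9.38 points per site on average and pairs of biological replicates by 8.51 points. The technical mean rests on 10.9 points in biological replicate 1 and 7.86 points in biological replicate 2, the latter below the biological mean. Over all listed sites both kinds of pair differed by 13.5 points. The biological replicates did not overlap, that is, both libraries of one exceeded both of the other, at 30 sites (13.7%), a share that was 30.4% over all listed sites. With the column names read the other way, the count was 50 sites (22.8%), beside 26.3% over all listed sites. In the first reading replicate 1 was the higher at 15 of these and replicate 2 at the other 15. At 104 Rab27b sites a library of each replicate read 100%, which makes such a separation impossible; among the remaining 115 sites the share in the first reading was 26.1%, beside 32.0% for the table treated in the same way. Technical replicate 2 of biological replicate 1 was the sole lowest library at 77 of the 219 sites, more often than the other libraries, which were lowest at 38 to 43 sites. This did not hold in stretch 2, where that library was the sole lowest at 3 of 45 sites, the fewest of the 4 libraries.

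Neighbouring sites often had the same level. Of the Rab27b sites, 214 (97.7%) had another listed site within 10 bases, beside 93.7% of all listed sites. The median step from a site to the next was 3 bases, beside 4 bases over all listed sites. In Rab27b 48 steps were to the directly following base, 21.9% of its sites, beside 22.3% over all listed sites. Such close spacing was thus shared by the table as a whole. Among the 186 steps of up to 10 bases, 34 (18.3%) joined sites with equal levels in all 4 libraries, and 6.61% did so over the whole table. Leaving out steps that start from a site at 100% in every library, the shares were 16.8% and 6.14%. Sites at 100% in exactly 2 or 3 libraries stayed in. They made up 22.4% and 21.9% of the Rab27b sites, beside 3.90% and 1.86% of all listed sites, so this does not set the top of the scale aside. The deviations of sites from their own means over the 4 libraries, with library means removed, correlated at 0.661 for the 409 pairs of Rab27b sites 1 to 10 bases apart and at 0.195 for the 1399 pairs 11 to 50 bases apart. At 51 to 150 bases the value was -0.085 over 2117 pairs. Over all listed sites the values were 0.758, 0.506 and 0.249. At the next and last range of distances they were -0.204 in Rab27b and 0.037 over all listed sites. The library means removed were those of Rab27b for the gene and those of the whole table for all listed sites. A gene's own departure from the table means thus stays in the table values, which can raise them. The values of the gene and the table are therefore not compared. These correlations are across pairs of sites that share libraries, and neighbouring pairs share sites, so they are given as a description only.

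Rab27b was set against the rest of the table. The other 8273 listed sites averaged 50.7% ± 0.123 (SD, n = 2), so that Rab27b was higher by 40.1 points ± 1.23 (SD, n = 2). The difference was 38.9, 39.6, 42.1 and 39.8 points in the single libraries, and Rab27b was higher in 4 of 4. An exact two-sided sign-flip permutation test over the 2 biological replicates gave p = 0.5, which is the smallest value that this number of replicates allows, so the design cannot pass a threshold of 0.05. Of the other sites, 97.6% had a mean below the Rab27b median of 94.9%. The gene was put forward with its high level already known. The direction of the difference was thus known beforehand, and these values are a description.

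Among the 53 genes with 10 or more listed sites, whose median level was 48.2%, Rab27b ranked 2 by mean level. The 5 genes whose means in the 4 libraries were closest to those of Rab27b were Vps13b, Cnrip1, Anapc10, Tpsg1 and Phf14. Likeness was the mean absolute difference over the 4 libraries. Vps13b, a large lipid transfer protein of the Golgi, had 21 sites at 91.6% ± 1.30 (SD, n = 2) and differed from Rab27b by 1.76 points on average. The order of these neighbours was not stable, since Rab27b was the higher in technical replicate 1 of both biological replicates and Vps13b in technical replicate 2 of both. Cnrip1, which binds the cannabinoid receptor CB1, had 51 sites at 84.5% ± 0.692 (SD, n = 2). Anapc10 belongs to the anaphase-promoting complex and had 173 sites at 83.8% ± 4.80 (SD, n = 2). Tpsg1, the gamma tryptase of mast cells, stood at 80.6% ± 4.47 over 20 sites, and Phf14, a PHD finger protein, stood at 78.0% ± 3.09 over 38 sites (SD, n = 2 for both). Rab27b was higher than Cnrip1, Anapc10, Tpsg1 and Phf14 in all 4 libraries. The mean distances of these genes from Rab27b ran from 6.32 points for Cnrip1 to 12.7 points for Phf14. As Rab27b ranked 2 and the genes were picked for nearness, most had to lie below it, so this describes the order only.

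**Figure D4:**
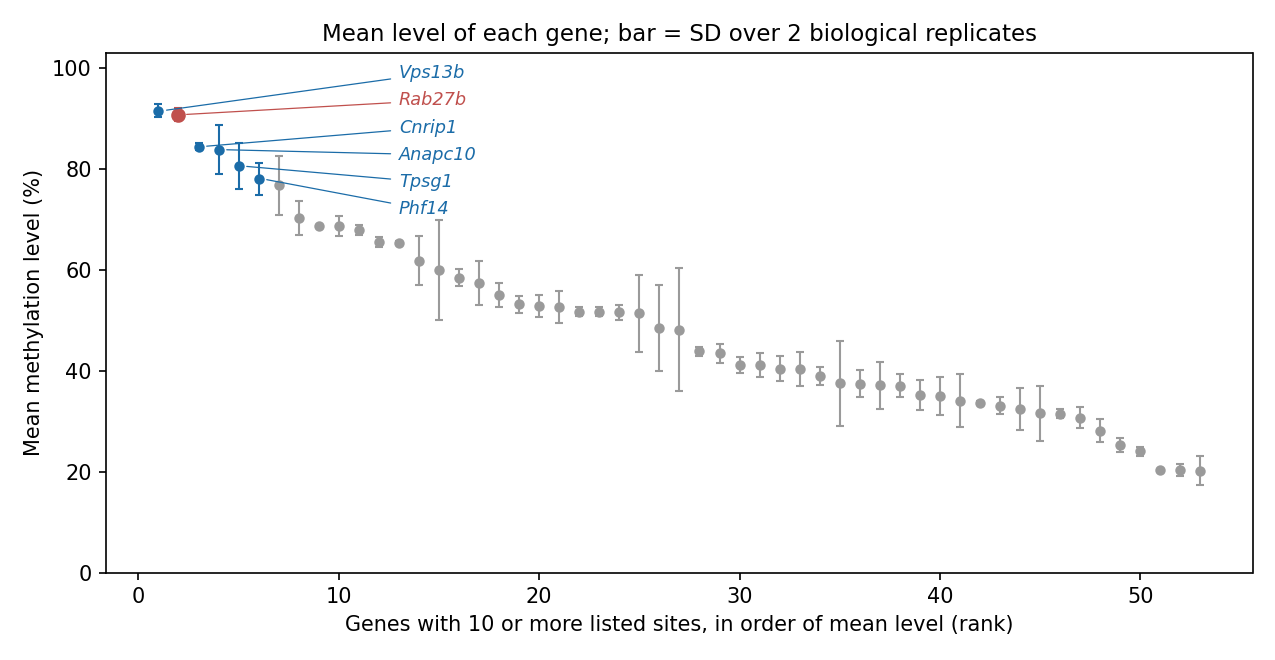
Mean methylation level in percent (vertical axis) of the 53 genes with 10 or more listed sites, in order of level (horizontal axis, rank); points are means and bars the SD over 2 biological replicates. Rab27b (red) and Vps13b stand at the top at 90.8% and 91.6%, and the other named genes (blue) follow from 84.5% to 78.0%.

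High levels recurred in each of the separate Rab27b stretches. Of the 146 regions with 10 or more sites, 6 had a mean of 90% or more and 16 a mean of 80% or more. Stretches 3, 2 and 1 ranked 1, 4 and 5 by mean level over sites and stretch 4 ranked 14, beside a median region level of 46.3%. Of the 30 genes with at least 2 such regions, 2 had all of them at 80% or more, Rab27b with 4 and Anapc10 with 2 regions at 84.0% and 84.6%. The Rab27b stretches differed by 14.5 points from the lowest to the highest, while the median of that range over the 30 genes was 18.9 points. Inpp4b, a phosphoinositide phosphatase chosen here after its values were seen, had a region as high as 94.5%, but its 12 regions reached down to 25.7%.

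Other genes of the Rab27b pathway were looked up in the table. Only 110 genes of the whole annotation held any listed site, and the share over all annotated genes is not given here. A count of 0 for a short list is therefore not read as a result about its genes. The 18 genes listed as Rab27 partners had 0 listed sites. They comprised Rab27a, the effectors Mlph, Myrip, Exph5, Sytl1 to Sytl5 and Unc13d, the motor Myo5a, the exchange factor Madd, the GTPase-activating proteins Tbc1d10a and Tbc1d10b, and the prenylation genes Chm, Chml, Rabggta and Rabggtb. The 16 genes of granule fusion, among them the SNAREs Snap23, Stx4a and Vamp8 and the regulator Stxbp2, also had 0 listed sites. Of 58 other annotated Rab GTPase genes, 2 had sites. Rab37, another Rab of mast cell granules, had 3 sites on chromosome 11 from 115125921 to 115125955, at 41.5% ± 3.22 (SD, n = 2). They also lie in the span of Cd300lf, an inhibitory receptor of myeloid cells, and cannot be assigned to either gene. Rab1a, which acts in transport from the endoplasmic reticulum to the Golgi, had a single listed position, 20225950 of chromosome 11, with a level of 17.4% ± 5.80 (SD, n = 2). Both were far below Rab27b in every library.

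Among 17 mast cell genes, 4 had listed sites. Besides Tpsg1 these were Il1rl1, the IL-33 receptor, with 445 sites at 39.0% ± 1.81, the granule carboxypeptidase Cpa3 with 1 site at 27.2% ± 11.4 and the prostaglandin D synthase Hpgds with 1 site at 18.8% ± 2.34 (SD, n = 2 for each). Tpsg1 was in this list but not among the mast cell markers named in the plan, so its presence is not an independent finding. The 11 marker genes of neutrophils, macrophages, basophils, B cells and T cells had 0 listed sites. As for the lists above, these counts were not set against a share over all annotated genes and describe the lists only. A gene is absent from the table if its sites lay under the lowest listed level of 10%, were not among those the authors selected or had too few reads, and these cases cannot be told apart here.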

How the data were processed

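After DNase treatment, poly(A) RNA and an unmethylated lambda RNA spike-in were bisulfite converted, and stranded libraries were sequenced as paired-end reads, per the labels' protocols. Builds mm10 and GRCm38 are named in the submitters' processing notes. The aligner, site caller, coverage minimum and conversion rate are unknown (not given in the sources used here). Per site and library, the authors deposited a methylation rate, a fraction from 0 to 1, which was multiplied to percent here. Sites were chosen by the authors, per the file headers. In the column names, K with its number was taken for the biological replicate and "rep" with its number for the technical replicate; the opposite reading is an alternative.

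Technical replicates were averaged first. Sites up to 500 bases apart were joined into stretches, and a site counted for each gene whose RefSeq span (GRCm38.p6) includes it. Functions were tested on simulated data. The gene, the lists and the tests were chosen with earlier results of these data known. Named genes were Rab27b, list genes and Rab genes with a site, the 5 genes closest in level with 10 or more sites, and the nearest genes with sites on the chromosome. The planned comparison of genotypes was not run, because the analysed table covers Tet2-/- libraries alone. Alternatives covered site weighting, close sites, level minimums, joining distance, replicates and column reading. Python 3.11.15, numpy 2.4.6, pandas 2.3.3 and matplotlib 3.10.9 were used.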

Additional observations from a re-analysis of the deposited data

How the results depend on the processing

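The Rab27b level of 90.8% became 94.7% with a median over sites taken in each library and then averaged. With a replicate left out the level was 89.8% to 91.7%. It stayed within its SD under the other settings tried, including the 5 sites without a listed site within 10 bases (90.2%). By the same averaged medians, stretches 1 to 4 stood at 95.8%, 98.8%, 97.1% and 84.5%, so that stretch 2 rather than stretch 3 was the highest. Without technical replicate 2 of biological replicate 1, a setting chosen after seeing the data, stretches 1 and 2 stood at 92.7% and 91.6%. Merging positions within 10 bases left 33 of the 219 sites, and joining sites up to 5000 bases apart gave 2 stretches. The difference from all other listed sites remained positive, from 39.2 to 52.4 points, under the settings tried. With the column names read the other way, also chosen after seeing the data for this count, 50 of the 219 sites (22.8%) rather than 30 had biological replicates that did not overlap, beside a share of 26.3% over all listed sites in that reading, and the SD of the gene's level was 0.647 points. Dropping a replicate of 2 can never shift a mean by as much as the SD, so those ranges show nothing about stability; for stretches 1 to 4 they were 90.4% to 91.7%, 92.3% to 92.9%, 94.5% to 96.6% and 79.1% to 83.0%. No paired analysis was possible because no wild-type levels entered it. In 5 levels (the gene and its 4 stretches), 0 libraries stood apart from the other 3 by Dixon's criterion. The limits set by read depth are unknown.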
